A study of Homo sapiens with 9 samples.

Results

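Box H/ACA small nucleolar RNAs (snoRNAs) were measured in a clone of H1 human embryonic stem cells with a knockout of HERVHlin on chromosome X, and compared with a control clone. Members were all rows of the deposited table with the gene type snoRNA and a name of SNORA followed by a number, which gave 214 of 60829 rows. The knockout clone has 5 libraries and the control clone, whose genotype label is WT, has 4. Each group is a single clone sampled over successive passages, which are technical replicates by the design text and biological ones by the titles, so p-values here measure the spread between passages and not between clones. All cells were H1, an established embryonic stem cell line, grown in mTESR medium on vitronectin, although a treatment label on every sample reads "differentiated cells". Total RNA was depleted of ribosomal RNA and made into stranded libraries.

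Box H/ACA snoRNAs are short RNAs of the nucleolus that fold into a pair of hairpins, joined by a hinge with the H box (ANANNA) and followed by a tail with the sequence ACA. Most of them base-pair with ribosomal RNA and direct the change of a uridine to pseudouridine by the enzyme dyskerin (DKC1), which they bind together with NHP2, NOP10 and GAR1. Some, such as SNORA73 (also called U17 or E1), serve in the cleavage of the precursor of ribosomal RNA. In vertebrates most are cut out of introns of host genes, many of which encode ribosomal proteins, translation factors or the noncoding SNHG transcripts.

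Of the 213 members with a sequence in GENCODE 29 (GRCh38), 142 (66.7%) carried ACA exactly 3 bases from the 3′ end, compared with 5 of 191 box C/D (SNORD) rows (2.62%). The H box motif ANANNA lay within 15 bases of the midpoint in 183 members (85.9%), against 70 SNORD rows (36.6%). Both motifs were read on the transcript's own strand. The SNORD rows here and below leave out SNORD113 to SNORD116, which have 122 rows. The sequences of the members that the results below turn on are given here, read 5′ to 3′ from the GENCODE 29 transcripts, with capitals for the ACA 3 bases from the end and for the ANANNA match nearest the midpoint. SNORA73A and SNORA73B had the highest counts, while SNORA74D and SNORA35 were lower and SNORA36A was higher in every knockout library than in any control library. None of them passed the test between the clones. Values without overlap were found in 2.54% of tested members, beside 3.95% of all tested rows.
SNORA73A: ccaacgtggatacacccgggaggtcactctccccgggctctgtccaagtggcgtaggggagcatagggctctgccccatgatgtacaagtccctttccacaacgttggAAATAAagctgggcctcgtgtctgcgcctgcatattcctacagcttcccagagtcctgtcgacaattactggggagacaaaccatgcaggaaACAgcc
SNORA73B: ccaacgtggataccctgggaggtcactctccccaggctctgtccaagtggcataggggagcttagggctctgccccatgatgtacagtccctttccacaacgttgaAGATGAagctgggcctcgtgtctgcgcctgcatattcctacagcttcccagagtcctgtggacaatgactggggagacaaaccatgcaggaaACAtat
SNORA74D: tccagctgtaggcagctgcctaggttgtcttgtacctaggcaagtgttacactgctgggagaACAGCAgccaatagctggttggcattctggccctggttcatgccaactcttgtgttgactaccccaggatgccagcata
SNORA35: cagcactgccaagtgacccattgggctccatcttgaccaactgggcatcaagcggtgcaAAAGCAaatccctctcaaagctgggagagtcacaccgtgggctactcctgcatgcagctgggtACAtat
SNORA36A: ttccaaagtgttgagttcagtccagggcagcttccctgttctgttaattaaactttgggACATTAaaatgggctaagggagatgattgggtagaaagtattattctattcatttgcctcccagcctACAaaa

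SNORA73A lies at chr1:28507366-28507571 on the plus strand and SNORA73B at chr1:28508559-28508762 on the plus strand, both within SNHG3, and 192 of their 206 aligned bases were identical (93.2%). SNORA74D lies at chr5:139276180-139276320 on the plus strand, in an intron of SNHG4, and has no ACA at 3 bases from its annotated end. Its annotated neighbour SNORA74A matched it at 53.0% of aligned bases. SNORA35 lies at chrX:114630797-114630924 on the plus strand, in an intron of HTR2C, which encodes a serotonin receptor. SNORA36A lies at chrX:154768528-154768659 on the plus strand, in DKC1, the gene of dyskerin itself.

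The libraries held 21434888 to 31192630 reads in the knockout clone and 19838682 to 30388797 in the control clone, as recovered from the normalized counts (gene counts divided by 1 size factor per library). SNORA rows took 0.278% to 0.379% of the recovered reads of knockout libraries and 0.305% to 0.466% of those of control libraries. In short SNORA rows low counts came in steps of many recovered reads, as described below. Shares of short RNAs therefore need not be shares of sequenced reads, and steps were fitted to SNORA rows only. The lowest SNORA share was that of knockout 1, in which miRBase-named rows took 31.4% of recovered reads and protein-coding rows 25.9%. In the other knockout libraries miRBase-named rows took 8.40% to 17.8%, and in control libraries 5.28% to 12.7%. The part of this in the SNORA values was not tested. Of the 3 rows that the authors' deposited table marks as knocked out, gene.human_00015544 had 25.9, 58.6, 65.2, 65.0 and 73.0 normalized counts in the 5 knockout libraries, against 3428, 2119, 3935 and 1316 in the 4 control libraries, and 1 of the other 2 also passed the test. The 6 stem cell markers were all expressed and none passed the test, with sums of 23012 to 36417 normalized counts in knockout libraries and 27499 to 64791 in control libraries. All 6 had negative log2 fold changes, knockout over control, with a median of -0.51. All 6 stayed negative with quantile normalization (median -0.24) and when scaled to protein-coding rows (median -0.32). The lowest was that of TDGF1, -0.92 (SE 0.31, adjusted p = 0.385 by limma). The cause was not tested. Of 10 genes listed as markers of other cell types 4 were tested and none passed. The sums of the 10 were 2885 to 4510 normalized counts in knockout libraries and 3225 to 5829 in control libraries, mostly COL1A1, COL1A2 and THY1. THY1 alone averaged 2640 in the knockout clone and 3138 in the control clone. These genes were listed as fibroblast markers. Whether they are confined to other cells was not tested, so the sums do not measure other cells. SOX1, SOX17, GATA6, FOXA2 and TBXT were at or near 0. MIXL1 had 6.76 to 13.97 normalized counts in knockout libraries and 14.45 to 24.86 in control libraries. All its knockout values were thus lower, as in 2.6% of all tested rows. PAX6, which was not tested, averaged 10.1 in the knockout clone and 4.47 in the control clone, and its values overlapped.

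Among the 214 members, 45 had no read in any library, 66 were above 0 in all 9, and 118 passed the filter on low counts and were tested. Of the 96 not tested, 51 had reads in some library. The members had 152 distinct names, of which 11 are shared by several rows, and SNORA70 alone has 27 rows. Their median annotated length was 133 bases (68 to 701). By mean normalized count, 57 rows reached 200 and 64 lay above 0 but under 50. Whether the deposited counts had already been scaled by length was not known. An annotated host gene on the same strand contained 155 of the 213 members with a position, and these were 117 distinct genes; 18 members lay in ribosomal protein genes and 23 in SNHG genes. A host exon overlapped 56 members, and 61 members had their whole sequence in other annotated transcripts when compared in words of 31 bases, so their counts depend on how reads were divided among rows.

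The low counts of short members did not come in single reads. In 59 members of 120 to 150 bases that share under 1% of their words with other transcripts, low counts lay on whole multiples of a step, searched between 24 and 60 reads, which for 135 bases was 24.5 recovered reads in knockout 1, 30.5 in knockout 2, 37.5 in knockout 3, 38.75 in knockout 4 and 44.25 in knockout 5. The step was 36.25 in control 1, 29 in control 2, 44.75 in control 3 and 42.0 in control 4. It was fitted as larger for shorter rows, in inverse proportion to length less a fitted offset. Of 143 values under 6.5 steps, 120 (83.9%) lay within 0.1 of a whole step, where values spread evenly would give 20%, and since the steps were fitted to these same values the share is a description. Only 9 of 1030 member values above 0 were between 1 and 9 reads (0.874%), against 27021 of 159092 protein-coding values (16.98%). One step therefore passes a filter of 10 reads, and a recovered count of a short row of about 40 reads can stand for a single step.

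**Figure D1:**
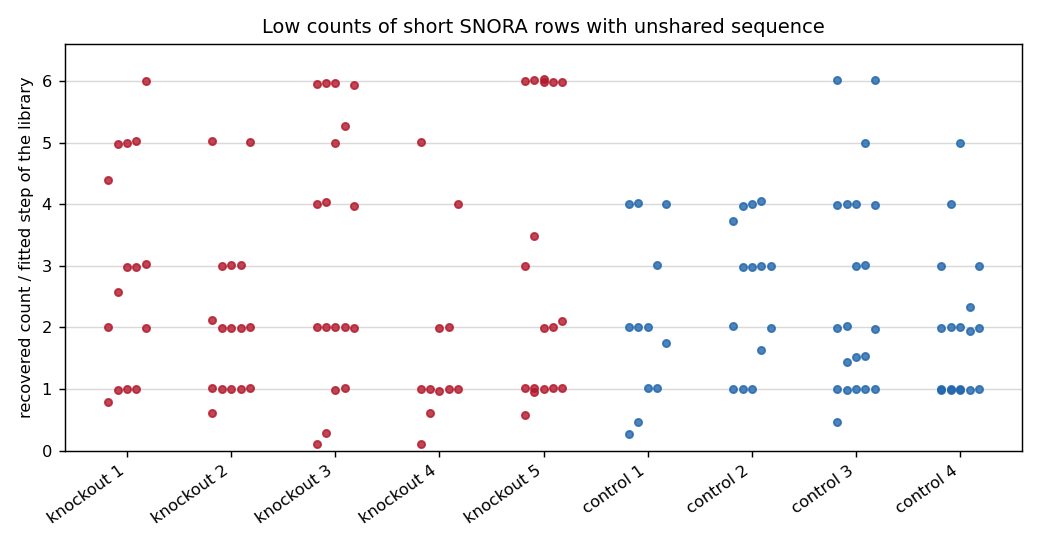
Recovered count of short SNORA rows with unshared sequence, divided by the fitted step of each library, for values up to 6 steps in the 5 knockout and 4 control libraries (x axis). Each point is 1 row in 1 library, and 120 of the 143 points lie within 0.1 of a whole number of steps.

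No SNORA row passed the test between the clones (limma, Benjamini-Hochberg adjusted p under 0.05): 0 of 118, where 0.54% of all 27777 tested rows were called (0.115% higher and 0.425% lower). The count was also 0 with edgeR's quasi-likelihood test (0.544% of all rows called), with DESeq2 (2.06%) and in the authors' deposited table, which gives an adjusted p for 144 SNORA rows (2.05% of all rows called) and whose lowest value among them is 0.0628, for SNORA74D. At an unadjusted p under 0.05 there were 11 SNORA rows (9.32%), 6 higher and 5 lower in the knockout clone, beside 8.63% of all rows (3.58% higher and 5.05% lower), so the share was near the background. Knockout and control values did not overlap in 3 members (2.54%), SNORA36A with all knockout values higher and SNORA74D and SNORA35 with all lower, against 3.95% of all rows (1.35% higher, 2.6% lower). In bulk RNA, fewer cells that make a snoRNA and less of it per cell cannot be told apart.

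Summed over all members, SNORA normalized counts were 83183, 103315, 91368, 65052 and 61713 in the knockout libraries, against 117425, 155437, 84604 and 77165 in the control libraries. The groups overlapped, and control 1 and control 2 were the highest. The sums averaged 80926 ± 17582 in the knockout clone (SD, n = 5) and 108658 ± 35756 in the control clone (SD, n = 4). The mean log2 sum of the knockout clone less that of the control clone was -0.40. It was -0.21 without control 2, -0.16 with quantile normalization and -0.20 when scaled to protein-coding rows. The SNORD rows summed to 68769 to 101607 normalized counts in the knockout libraries and 88057.5 to 147522 in the control libraries. The members with the highest and the second highest mean took 25.2% to 38.3% of the sum of a library, and the 10 highest took 53.5% to 71.3%. In control 2 each recovered read is worth 1.55 normalized counts, the highest of all libraries, beside 0.737 to 1.16 in the knockout libraries and 0.903 to 1.06 in the other control libraries. Its part in these values was not tested.

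Fold changes differed by level. Of the 118 tested members 67 (56.8%) had a negative log2 fold change, beside 49% of all tested rows, and their median was -0.12, beside 0.01 for all rows. Among the 57 members whose mean normalized count was at least 200, 43 were negative and the median was -0.37. Among the 61 below that level, 37 were positive and the median was 0.49. Protein-coding rows had a median of -0.09 with 9342 of 14739 negative. With a minimum count of 50, 57.9% of all rows were negative (median -0.06), and the SNORA median was -0.16. Other classes of small RNA, taken at all levels, also differed. The median was 0.48 for small nuclear RNA rows (452 of 701 positive) and 0.66 for Y RNA rows (247 of 357 positive). It was 0.19 for small Cajal body RNAs, -0.13 for SNORD rows and 0.52 for the 16 tested rows of SNORD113 to SNORD116. A positive median was thus not particular to SNORA rows with low counts. The median SD of log2 values within a clone was 2.46 for members with a mean under 200, 0.66 for those above, 0.35 for protein-coding rows and 0.46 for all rows. Of the 118 tested members 52 had a value of 0 in at least 1 library. When libraries were scaled to protein-coding rows instead, the median of all rows moved to 0.20 and that of the SNORA members to 0.07 with 56 negative, while that of the SNORA members with quantile normalization was -0.10. Of the 57 abundant members, 38 were negative with quantile normalization (median -0.19), 36 when scaled to protein-coding rows (median -0.17) and 35 without control 2 (median -0.15).

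**Figure D2:**
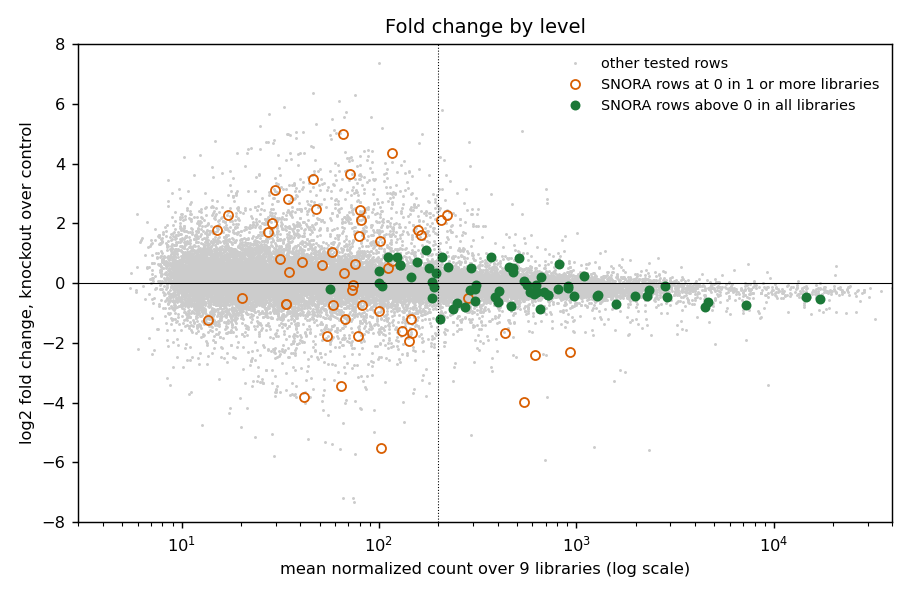
Log2 fold change of the knockout clone over the control clone (y axis) against the mean normalized count over 9 libraries (x axis, log scale) for SNORA rows and for other tested rows within the axis limits. Filled points are SNORA rows above 0 in all libraries, open circles are those at 0 in at least 1 library, and the dotted line marks a mean of 200, above which 43 of 57 members lie below 0.

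The 10 members with the highest mean all had negative log2 fold changes, with a median of -0.47, and none passed the test. SNORA73A, a snoRNA of precursor cleavage, had 14768, 21000.2, 16459, 8767 and 8856 normalized counts in the 5 knockout libraries, against 25726, 32386, 15046 and 10837 in the 4 control libraries. SNORA73B, its near copy in the same host, had 15685, 17392, 14839.7, 7629 and 7429.9 normalized counts in the 5 knockout libraries, against 19192, 24334, 13899 and 10831 in the 4 control libraries. In both, control 1 and control 2 were high and knockout 4 and knockout 5 were low, and the groups overlapped. SNORA73A averaged 13970.1 ± 5232 in the knockout clone (SD, n = 5) and 20999 ± 9844 in the control clone (SD, n = 4), a log2 fold change of -0.54 (SE 0.39, adjusted p = 0.761 by limma). For SNORA73B it was -0.46 (SE 0.35, adjusted p = 0.772 by limma). With quantile normalization these log2 fold changes were -0.18 for SNORA73A and -0.13 for SNORA73B, and without control 2 they were -0.29 and -0.27. The whole sequence of SNORA73A also lies in an annotated SNHG3 transcript, while SNORA73B shares 16.1% of its words with other transcripts. SNHG3 itself had 4973, 4830.1, 4965, 2488 and 2687 normalized counts in the 5 knockout libraries, against 5351, 4703, 5818 and 4832 in the 4 control libraries, with knockout 4 and knockout 5 again lowest and a log2 fold change of -0.44 (SE 0.25).

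SNORA74D, in SNHG4, was the member of these 10 whose groups did not overlap. It had 2303, 3899, 4227, 3448 and 2954 normalized counts in the 5 knockout libraries, against 4433, 7178, 7740.2 and 4440.0 in the 4 control libraries, so that every knockout value was below every control value. It averaged 3366 ± 763 in the knockout clone (SD, n = 5) and 5948 ± 1760.2 in the control clone (SD, n = 4). The log2 fold change, -0.80 (SE 0.25), had an unadjusted p of 0.00901 and a limma adjusted p of 0.301, which missed the threshold, and the adjusted p ranged from 0.203 to 0.648 with 1 library left out. Its sequence is shared with no other annotated transcript. Counted in steps, which are not divided by the size factor, its values were 99.5 to 131 in the knockout libraries and 126 to 206 in the control libraries. The groups overlapped in steps, but the steps were fitted on values under 6.5 steps and carry no correction for library depth. No comparison of the clones was drawn from them. SNORA74A, in another intron of the same host, had 2886, 4589, 4682, 2996 and 2542 normalized counts in the 5 knockout libraries, against 4370.2, 12007, 4485 and 3484 in the 4 control libraries. There the groups overlapped and control 2 was far above all other libraries, with a log2 fold change of -0.64 (SE 0.36), or -0.25 without control 2. SNHG4 as a whole had 2106, 1872, 2702, 2185 and 2472 normalized counts in the 5 knockout libraries, against 1761, 2997, 3313 and 3023 in the 4 control libraries, which overlapped (log2 fold change -0.26, SE 0.21).

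EIF4A2, the gene of a translation initiation factor, hosts 2 of the 10. SNORA63 (ENSG00000200320.1) had 6096, 8404, 8528, 3863 and 2360.2 normalized counts in the 5 knockout libraries, against 10061, 13040.1, 6562 and 6543 in the 4 control libraries, with knockout 5 lowest and control 2 highest (log2 fold change -0.72, SE 0.41). SNORA81 had 1817, 2521, 2066, 1222 and 1387 normalized counts in the 5 knockout libraries, against 2503, 5750.2, 2372 and 866 in the 4 control libraries. Control 2 was its highest and control 4 its lowest value, and its log2 fold change of -0.42 (SE 0.47) was 0.01 without control 2. The sequences of both lie wholly in annotated EIF4A2 transcripts, and the fold change of EIF4A2 was -0.21 (SE 0.22) on the log2 scale.

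The other abundant members lie in protein-coding hosts and share no word with other transcripts. SNORA33, in the ribosomal protein gene RPS12, had 2595, 2546, 1814, 2055 and 3001 normalized counts in the 5 knockout libraries, against 2910.3, 5359, 2734 and 2789 in the 4 control libraries (log2 fold change -0.48, SE 0.24). SNORA53, in the phosphate carrier gene SLC25A3, had 2585, 2084, 2527, 1599 and 1851 normalized counts in the 5 knockout libraries, against 3241, 3539, 1861 and 1711 in the 4 control libraries (log2 fold change -0.23, SE 0.26). SNORA5C, in TBRG4, had 2647, 1964, 1592, 1063 and 1264 normalized counts in the 5 knockout libraries, against 2022, 3657, 1559 and 2027 in the 4 control libraries (log2 fold change -0.44, SE 0.31). All 3 overlapped between the clones, and control 2 was the highest library in each. SNORA79B, in CCNB1IP1, had 2314, 3382, 3448, 2154 and 2539 normalized counts in the 5 knockout libraries, against 2787, 3527, 2806 and 2497 in the 4 control libraries, the smallest difference of the 10 (log2 fold change -0.09, SE 0.19). Its sign turned under other scalings, to 0.14 with quantile normalization and 0.11 when scaled to protein-coding rows. Under those scalings the 10 members had medians of -0.19 and -0.28 with 9 negative, and without control 2 the median was -0.25 with 8 negative.

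**Figure D3:**
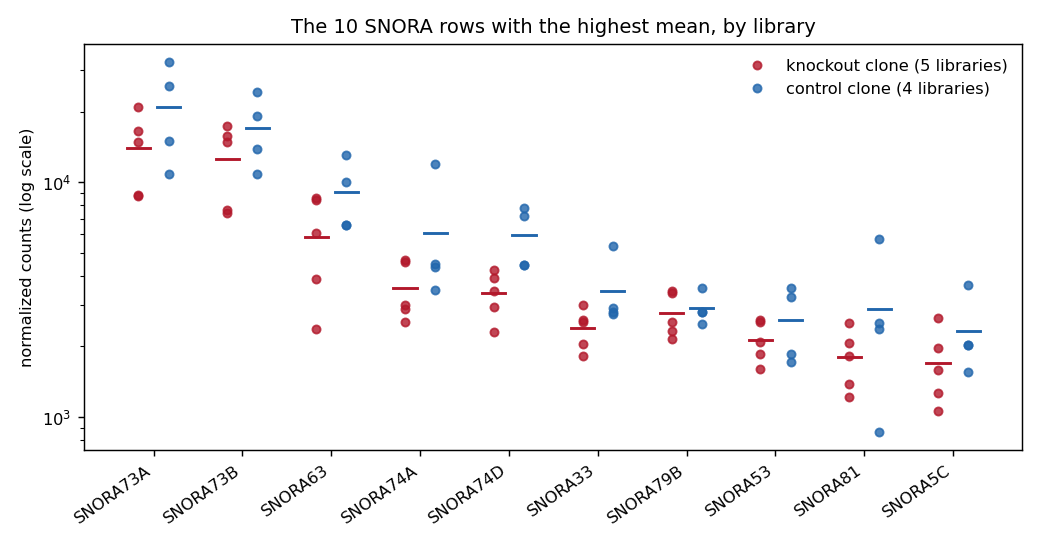
Normalized counts (y axis, log scale) of the 10 SNORA rows with the highest mean (x axis), with a point for each of the 5 knockout libraries and, to their right, each of the 4 control libraries, and bars at the group means. The mean of the knockout clone is below that of the control clone in all 10, and only in SNORA74D do the points not overlap.

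The members with the smallest unadjusted p lower in the knockout clone were SNORA35, SNORA74D, SNORA65, SNORA19 and a row of SNORA75. SNORA35, a snoRNA known from brain, had 25.9, 0, 50.1, 0 and 0 normalized counts in the 5 knockout libraries, against 355, 103, 181 and 208 in the 4 control libraries. All knockout values were below all control values, but they rest on few steps, since the knockout values are 0 or 1 step and the control values 2 to 8 steps. Its log2 fold change of -5.51 (SE 1.28) had an unadjusted p of 0.00169 and a limma adjusted p of 0.141, and it was -4.09 with a pseudocount of 5 and -6.12 with 0.5. The count models gave -3.79 with edgeR (adjusted p = 0.429) and -3.80 with DESeq2 (adjusted p = 0.466). Without knockout 3 it passed the threshold (adjusted p = 0.0498), and over the other libraries left out the adjusted p was up to 0.316. Its host HTR2C had 44.1, 32.7, 15.1, 20.2 and 16.2 normalized counts in the 5 knockout libraries, against 132, 74.6, 72.9 and 79.5 in the 4 control libraries, so the host's groups did not overlap either. The log2 fold change of HTR2C was -1.84 (SE 0.35) with a limma adjusted p of 0.0668, which missed the threshold, while DESeq2 called it (adjusted p = 0.000306) and so did limma without knockout 1 (adjusted p = 0.0384). SNORA35 and HTR2C were the pair with the lowest fold changes of both snoRNA and host. Both lie on chromosome X, as does the knockout, and their distance from it was not analysed here.

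SNORA65, in the ribosomal protein gene RPL12, had 1108, 1215, 1098, 979.8 and 1215 normalized counts in the 5 knockout libraries, against 1392, 1984, 1191 and 1455 in the 4 control libraries, with an overlap of knockout 2 and knockout 5 with control 3 only. On the log2 scale it differed by -0.40 (SE 0.16, adjusted p = 0.523 by limma). SNORA19, in the translation initiation factor gene EIF3A, had 309, 471, 199, 259 and 548 normalized counts in the 5 knockout libraries, against 532, 668, 363 and 830.0 in the 4 control libraries, which overlapped (-0.78 on the log2 scale, SE 0.34, adjusted p = 0.568 by limma). The SNORA75 row in the nucleolin gene NCL (ENSG00000206885.1) had 18.2, 0, 4.66, 0 and 0 normalized counts in the 5 knockout libraries, against 64.8, 471, 18.2 and 0 in the 4 control libraries, with control 2 far above all others (log2 fold change -3.44, SE 1.67, or -2.08 without it, -4.91 with edgeR and -4.92 with DESeq2).

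In the other direction the smallest p-values were those of SNORA36B, SNORA16B, SNORA36A, SNORA80C and SNORA30, all with low counts. SNORA36B, in RAB3GAP2, had 24.9, 112, 46.6, 217 and 141 normalized counts in the 5 knockout libraries, against 0, 48.2, 0 and 0 in the 4 control libraries, which is 1 to 7 steps against 1 step in a single control library. The log2 fold change was 5.00 (SE 1.20, adjusted p = 0.159 by limma), and without control 2 it was 6.40 and passed (adjusted p = 0.00776). The count models gave smaller values, 3.29 with edgeR (adjusted p = 0.656) and 3.18 with DESeq2 (adjusted p = 0.662). SNORA36A, 87.9% identical to SNORA36B, had 94.8, 143, 137, 91.2 and 242 normalized counts in the 5 knockout libraries, against 81.8, 48.2, 84.8 and 78.6 in the 4 control libraries, so that every knockout value was above every control value. These were 3 to 7 steps in the knockout and 1 to 2 in the control libraries, with a log2 fold change of 0.88 (SE 0.31, adjusted p = 0.406 by limma). The whole sequence of SNORA36A lies in an annotated transcript of DKC1, whose own log2 fold change was -0.17 (SE 0.15). SNORA16B, in the phosphatase subunit gene PPP2R5A, had 258, 68.8, 174, 203 and 195 normalized counts in the 5 knockout libraries, against 116, 0, 0 and 37.9 in the 4 control libraries (log2 fold change 4.34, SE 1.38, but 2.27 with edgeR and 2.22 with DESeq2). SNORA30, in the chromatin remodeller gene SRCAP, had 229.9, 76.7, 243, 192 and 397 normalized counts in the 5 knockout libraries, against 43.6, 151, 135 and 82.2 in the 4 control libraries (log2 fold change 1.11, SE 0.49). SNORA80C, which has no annotated host, had 164, 104, 130.4, 57.5 and 64.9 normalized counts in the 5 knockout libraries, against 0, 45.1, 0 and 75.9 in the 4 control libraries (log2 fold change 3.66, SE 1.32, but 1.75 with edgeR and 1.78 with DESeq2). In these 3 the groups overlapped, and none passed the test.

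Some members whose sequence lies wholly in other transcripts were at 0 in single libraries, and the 2 described here were chosen after their values were seen. SNORA67, in the translation initiation factor gene EIF4A1, had 654, 731, 813, 188 and 0 normalized counts in the 5 knockout libraries, against 826, 1001, 686 and 687 in the 4 control libraries. The SNORA70 row in the ribosomal protein gene RPL10 (ENSG00000207165.1) had 281, 872, 780.2, 0 and 0 normalized counts in the 5 knockout libraries, against 964, 904, 635 and 452 in the 4 control libraries. In both, knockout 5 was at 0 while no control library was. In all, 30 members were at 0 in some library and at 200 or more in another, and 12 of these had all their words in other transcripts. Of the 57 members with a mean of at least 200, the 14 with all words shared were all negative with a median log2 fold change of -0.65, and 5 had a zero. The other 43 had a median of -0.23 with 29 negative, and 2 had a zero. The share that read assignment has in the difference between these medians was not tested.

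Members and hosts were set side by side for 102 tested pairs with 86 hosts. The median log2 fold change was -0.23 for the members (quartiles -0.70 and 0.60) and -0.17 for the hosts (quartiles -0.27 and -0.03), and the median difference, member minus host, was 0.04. Both were negative in 57 pairs and the signs matched in 74. Taken singly, 63 of the 102 members and the hosts in 79 pairs were negative, so many signs would match without any relation. The direction of the hosts depended on the scaling, since 65 of the 86 hosts were negative with the authors' size factors, 36 with quantile normalization and 37 when scaled to protein-coding rows. None of the hosts was called, where 0.54% of all rows were, and the lowest adjusted p was that of HTR2C. In the 53 pairs whose member had a mean of at least 200, the signs matched in 45, with medians of -0.40 for members and -0.24 for hosts. Spearman's rho between member and host fold changes was 0.39 over the 102 pairs and 0.37 over the 53, as a description, since all pairs share the same 9 libraries and some share a host. Of all 214 members, 56 also share words with a transcript of their host, so both counts depend on how reads were divided. The part of this in rho was not tested. SNHG transcripts, hosts of many snoRNAs, had negative fold changes in 25 of 26 tested rows with a median of -0.28, and in 22 and 21 rows under the same other scalings.

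**Figure D4:**
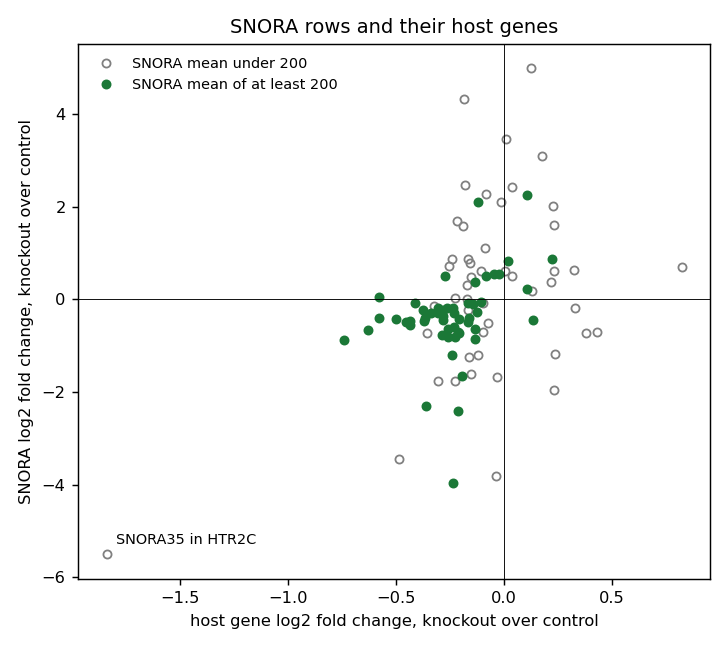
Log2 fold change of SNORA rows (y axis) against that of their host genes (x axis), knockout over control, for 102 tested pairs, filled where the mean of the SNORA row is at least 200. Hosts lie in a narrow range and SNORA rows with low counts spread widely, and SNORA35 with HTR2C lies alone at the lower left.

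Of the other genes of pseudouridylation and snoRNA particles, 1 was called, where 0.54% of all tested rows were. The 4 core proteins of the particle were all tested and 0 were called, with DKC1, the pseudouridine synthase, at -0.17 (0.01 with quantile normalization and 0.02 when scaled to protein-coding rows), NHP2 at -0.40, NOP10 at -0.29 and GAR1 at -0.56 on the log2 scale. Without control 3 the values were -0.13 for NHP2, 0.02 for NOP10 and -0.29 for GAR1. Their values overlapped between the clones. None was called among the 6 assembly factors (median log2 fold change -0.13), the 3 telomerase genes or the 7 genes of 3′ end processing (median -0.19), and the median of the assembly factors was 0.06 when scaled to protein-coding rows. TERC, the telomerase RNA that carries an H/ACA domain, had a log2 fold change of -0.31 (SE 0.33). The 4 core proteins of box C/D particles likewise gave 0 calls (median -0.23), and so did the 92 tested SNORD rows (median -0.13) and the 28 tested small Cajal body RNAs (median 0.19). With DESeq2, 2 of these SNORD rows and 0 of the small Cajal body RNAs were called, beside 714 of the 27777 rows.

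Of 12 pseudouridine synthases that work without a guide RNA, 1 was called, beside 0.54% of all tested rows. PUS7L, a paralog of the synthase PUS7, rose in the knockout clone. It had 329, 338, 392, 314 and 389.9 normalized counts in the 5 knockout libraries, against 19.1, 17.1, 9.12 and 34.3 in the 4 control libraries, and the groups were far apart. It averaged 353 ± 36.3 in the knockout clone (SD, n = 5) and 19.9 ± 10.5 in the control clone (SD, n = 4), a log2 fold change of 4.21 (SE 0.31, adjusted p = 0.000263 by limma). It was called with each library left out in turn (adjusted p up to 0.00206), with the replicate number as a block (adjusted p = 0.0374), and by edgeR and DESeq2. The other 11 had negative fold changes, of which 4 turned positive when scaled to protein-coding rows, and none of them was called. Across the 12, the median was -0.21, beside 0.01 for all tested rows.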

How the data were processed

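Total RNA of 9 libraries was analysed from 1 deposited table. The submitters' processing notes name fastp, kallisto, DESeq2 and hg38. Versions, order, annotation and strand setting are not stated there. Each signal column is the deposited gene count of a library over its size factor, and 100% of values were whole reads within 1e-06, so reads were recovered by division. The authors' deposited log2 fold changes, test scores, p-values and adjusted p-values stand in the same table.

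Clones were compared on log2(normalized count + 1) by limma-trend (limma 3.58.1 under R 4.3.3), with clone as its only term; for rows with zeros the fold change on this scale depends on the pseudocount and can be larger or smaller than that of a count model. Rows were kept by filterByExpr with a minimum count of 10, and Benjamini-Hochberg adjustment ran over 27777 rows with a threshold of 0.05. Alternatives were edgeR (version 4.0.16), DESeq2 (version 1.42.0), other scalings, pseudocounts and filters, a replicate block, each library left out, and, added after the data were seen, libraries 1 to 3 alone and subsets of members. Positions, same-strand hosts (the most expressed containing gene) and sequences came from GENCODE 29.

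Named members were the 10 with the highest mean and the 5 with the smallest unadjusted p in each direction among those with a mean of at least 50, with their hosts and the gene lists given. Members and lists were chosen with earlier results of these data known. The batch label holds the replicate number, so same-numbered libraries were taken as paired in the replicate block alone, and not in the main test. Their deviations correlated at 0.07, 0.02, 0.25 and 0.33, and knockout 5 has no partner. Libraries with unlike numbers were not set beside them, so these values do not show whether a pairing exists.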

Additional observations from a re-analysis of the deposited data

Results flagged for a closer look

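In 6 of 40 groups of libraries examined, 1 library stood further from the rest than Dixon's criterion allows. Of the 6, 5 were control 2. The criterion assumes independent groups of normally distributed values. These groups share the same 9 libraries, and some rows were named for a small p, so the count is a description. SNORA74A had 12007 normalized counts in control 2, where the next control library had 4485. SNORA33 had 5359 in control 2, with 2910.3 in the next. SNORA36A was low there, at 48.2 with 78.6 in the next library, and SNORA36B had 48.2 where the other control libraries had 0. The SNORA75 row in NCL had 471 in control 2, with 64.8 in the next, and 18.2 in knockout 1, with 4.66 in the next knockout library.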

How the results depend on the processing

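The count of SNORA rows called was 0 under every alternative that kept all libraries and with libraries 1 to 3 alone, and 0 to 1 with 1 library left out: SNORA36B without control 2 and SNORA35 without knockout 3. Over all rows, 150 were called, against 782 with DESeq2, 99 with libraries 1 to 3 alone and 80 to 184 with 1 library left out. With the replicate block 43 were called, no SNORA row among them, and the SNORA median was 0.01. Knockout 5, which has no partner, adds nothing to the blocked fold changes, and leaving it out without a block already gave 82 calls and a SNORA median of 0.01. With 1 library left out, the SNORA median ranged from -0.37 to 0.01. That of members with a mean of at least 200 then ranged from -0.49 to -0.15. The difference of the mean log2 sums ranged from -0.54 to -0.21 and the member-minus-host median from -0.30 to 0.21. Signs turned for SNORA79B, to 0.14 (quantile) and 0.11 (protein-coding scaling), and for DKC1, to 0.012 and 0.022 under the same scalings. They also turned with 1 library left out for SNORA79B (-0.17 to 0.012), SNORA81 (-0.90 to 0.013) and NOP10 (-0.47 to 0.017). The cause was not tested. None of the other named SNORA rows turned its sign under these alternatives. Steps of 24.5 to 44.75 reads limit what the counts of short rows can show.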
